A study of Mus musculus with 8 samples.

Results

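The genes described here switch off signals from G protein-coupled receptors in mouse kidney samples whose cell type is labelled IMCD, the inner medullary collecting duct. They are 10 genes picked by symbol: the beta-arrestins Arrb1 and Arrb2, the receptor kinases Grk2, Grk4, Grk5 and Grk6, and the regulators of G protein signalling Rgs2, Rgs3, Rgs10 and Rgs14. Each symbol matched 1 of the 78298 gene identifiers in the deposited table. Values are in TPM, a transcript abundance scaled for transcript length and to the same total in each library, so levels of different genes can be compared within a library. There were 4 libraries of genotype AVP-flox, with loxP sites around the vasopressin gene Avp, and 4 of genotype AVP-flox;Cre, which carry a Cre recombinase as well. All 8 were labelled as tamoxifen-treated, so the control group had the floxed allele and the drug but no Cre, and there was no group with Cre on an unfloxed allele. The sources used here do not give the promoter that drives Cre or the age of the mice. Replicates are numbered, but the labels do not state that each is a separate mouse, and p-values then measure only the spread between these samples.

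Vasopressin acts on collecting duct cells through the V2 receptor, which couples to the stimulatory G protein and raises cAMP. An active receptor is phosphorylated by a G protein-coupled receptor kinase (GRK). A beta-arrestin then binds the phosphorylated receptor, blocks further coupling and links it to clathrin-coated pits for internalisation. RGS proteins act on the other partner: they speed up GTP hydrolysis by G protein alpha subunits, mostly those of the inhibitory and Gq classes, and so shorten the signal. RGS2 has been described as a vasopressin-responsive brake on V2 receptor signalling in the collecting duct.

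Start regions are shown for the 2 members that changed and were found in the RefSeq promoter table, Rgs3 and Grk6, and for Rgs2, because of its described link to cAMP. That table (build GRCm38.p6) matched 6 of the 10 members. For Grk6 it lists 3 starts close together, of which the most downstream is shown. Each sequence is the 250 bases before an annotated start, 5' to 3' on the gene's strand. Capitals mark the letters TGACG, the core of a cAMP response element, and GGGCGG, a GC box, each searched on both strands, where they read CGTCA and CCGCCC.
Rgs2, chr1:144004150-144004399, minus strand: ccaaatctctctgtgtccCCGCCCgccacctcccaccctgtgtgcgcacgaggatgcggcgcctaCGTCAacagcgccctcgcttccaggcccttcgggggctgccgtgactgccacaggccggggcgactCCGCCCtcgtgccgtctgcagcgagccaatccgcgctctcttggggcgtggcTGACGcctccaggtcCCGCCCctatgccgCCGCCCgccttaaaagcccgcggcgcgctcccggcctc
Rgs3, first start, chr4:62559597-62559846, plus strand: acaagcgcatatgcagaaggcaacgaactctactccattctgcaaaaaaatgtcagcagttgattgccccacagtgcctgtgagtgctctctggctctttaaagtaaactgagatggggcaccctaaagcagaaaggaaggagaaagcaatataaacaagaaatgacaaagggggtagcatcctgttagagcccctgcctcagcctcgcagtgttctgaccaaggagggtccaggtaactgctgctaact
Rgs3, second start, chr4:62619422-62619671, plus strand: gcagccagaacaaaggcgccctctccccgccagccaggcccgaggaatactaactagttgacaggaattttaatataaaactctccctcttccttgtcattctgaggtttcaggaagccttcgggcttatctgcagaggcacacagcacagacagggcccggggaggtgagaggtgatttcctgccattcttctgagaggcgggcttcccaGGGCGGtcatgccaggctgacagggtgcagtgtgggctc
Grk6, chr13:55445081-55445330, plus strand: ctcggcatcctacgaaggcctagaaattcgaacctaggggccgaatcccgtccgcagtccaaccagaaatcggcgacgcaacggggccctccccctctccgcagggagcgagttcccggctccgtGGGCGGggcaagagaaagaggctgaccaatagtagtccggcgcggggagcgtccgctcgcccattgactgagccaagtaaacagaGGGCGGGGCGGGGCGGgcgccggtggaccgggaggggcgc

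The Rgs2 window held TGACG at 2 places, at positions -185 and -67 from the start, and 4 GC boxes. Among the matched members not shown, Grk4 held 1 TGACG, at position -220, and Grk5 and Rgs10 held none. The first Rgs3 window held neither motif and the second held 1 GC box. The Grk6 window shown held 4 GC boxes, of which 3 overlap in a single run, and no TGACG. The window of the most upstream Grk6 start held neither motif and had 58% GC. None of these windows held the full element TGACGTCA. Over all 32851 promoter windows of this length, 17.8% held TGACG, 1.5% held TGACGTCA and 32.7% held a GC box. GC content was 72.4% for Rgs2, 48.4% and 56.8% for the Rgs3 starts and 68% for the Grk6 start shown. The median over all windows was 52.4%. The matches describe letters only, and the gene totals analysed here cannot tell which start was used.

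The labelled cell type was compared with 17 marker genes of collecting duct principal cells, all of which averaged at least 1 TPM. These summed to 22907 to 27493 TPM in the controls and 15743 to 18208 TPM with Cre, where 6 of the 17 were higher and 4 lower. The water channel gene Aqp2 alone set the direction of that sum: it was at 15995 ± 1467 TPM in AVP-flox and 6304 ± 754 TPM in AVP-flox;Cre (SD, n = 4 per group). The other 16 markers summed to 7736 to 9659 and 10299 to 12048 TPM, a split made after the values were seen. Markers of other cell types were present as well, with sums in AVP-flox and then AVP-flox;Cre of 2682 to 2777 and 2444 to 2542 TPM for endothelium, 242 to 375 and 368 to 488 TPM for intercalated cells, and 629 to 1140 and 740 to 920 TPM for proximal tubule. Of the endothelial markers 5 of 10 were higher and 2 lower (median log2 fold change 0.36), against the direction of their sum. Of the intercalated cell markers 5 of 8 tested were higher and 0 lower (median 0.76), and of the proximal tubule markers 0 of 9 changed in either direction. Over all genes tested 13.1% were higher and 14.2% lower. Markers of thick limb and distal tubule summed to 2742, 934, 2478 and 2569 TPM in AVP-flox 1 to 4. In AVP-flox;Cre they summed to 1346 to 1579 TPM, although 2 of the 6 tested were higher and 0 lower. AVP-flox 2 was the lowest of the 8 libraries, and AVP-flox 1, 3 and 4 were above every AVP-flox;Cre library. AVP-flox;Cre 2 had the fewest genes detected above 0 TPM (33576, the rest 50951 or more), and AVP-flox;Cre 4 the most at 1 TPM or more (23412, the rest 20765 or fewer). These 3 libraries were left out together in an alternative. The sum of Y-linked transcripts exceeded Xist in AVP-flox 1 and AVP-flox;Cre 1 and 2, and the same 3 members passed with this pattern as a covariate. Avp itself, which the kidney barely expresses, was at 0 to 0.27 TPM over the 8 libraries and does not check the genotype. The part of cell makeup and library quality in the values below was not tested, and in bulk tissue fewer cells of a type and less RNA per cell cannot be told apart.

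Of the 10 genes, 9 reached the mean of 1 TPM required for testing, and Rgs14 did not. Compared with AVP-flox, AVP-flox;Cre had 1 member higher (Rgs3) and 2 lower (Arrb1 and Grk6), while 6 did not pass the test (limma on log2(TPM + 1), adjusted p under 0.05 over all 19043 genes tested). Over all genes tested 27.3% passed, 13.1% as higher and 14.2% as lower, so 3 of 9 is near the background. The median log2 fold change of the 9 was 0.04, against -0.01 over all genes tested. In the 8 libraries, 2 members, Arrb1 and Rgs3, had groups that did not overlap, and 29.5% of all genes tested had such groups.

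**Figure D1:**
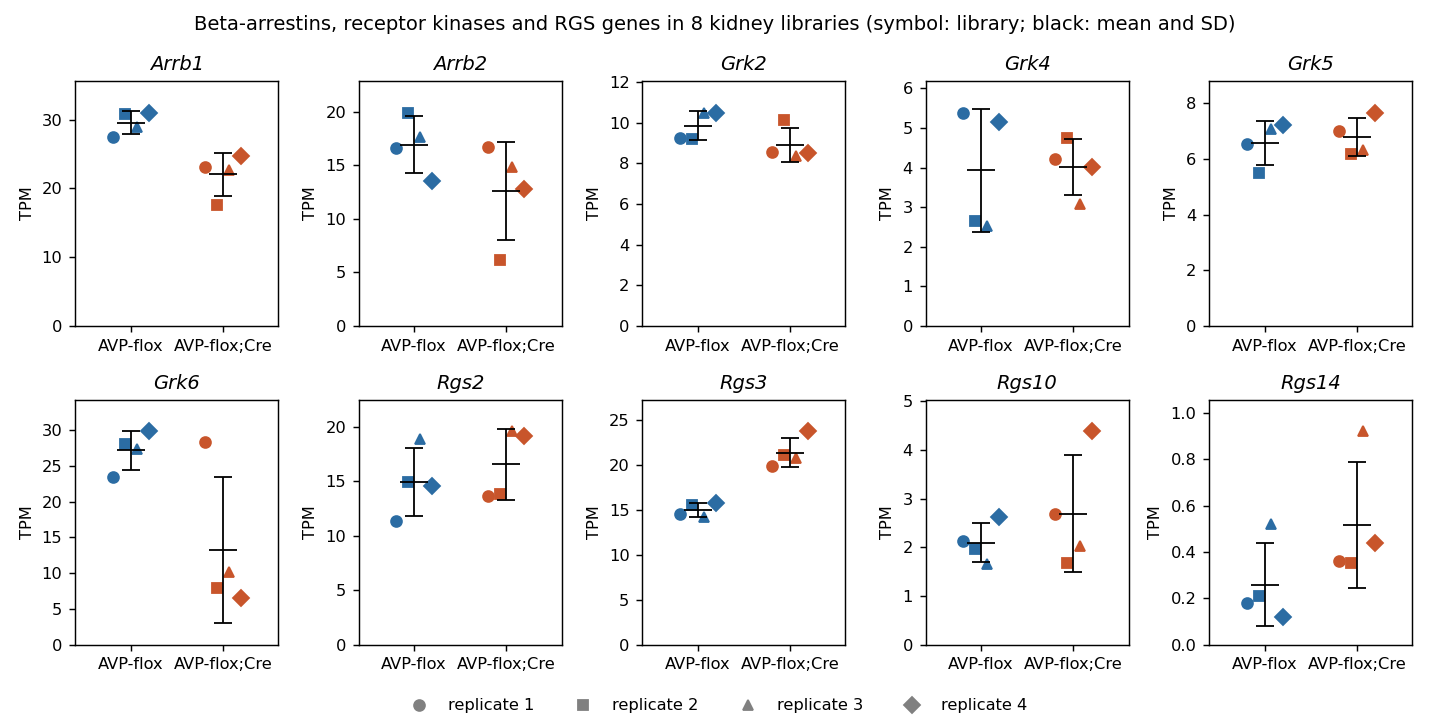
TPM of each of the 10 genes in the 4 AVP-flox libraries (blue) and the 4 AVP-flox;Cre libraries (orange), with a symbol per replicate, the mean and the SD in black, and each vertical axis starting at 0. The groups are apart for Arrb1 and Rgs3, and 1 AVP-flox;Cre library stays at the AVP-flox level for Grk6.

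In AVP-flox the members ranked by mean TPM from Arrb1 (29.5) and Grk6 (27.2) through Arrb2 (16.9), Rgs3 (15.0) and Rgs2 (14.9) to Grk2 (9.85), Grk5 (6.58), Grk4 (3.93), Rgs10 (2.10) and Rgs14 (0.26). Ranges overlapped between Arrb1 and Grk6, among Arrb2, Rgs3 and Rgs2, and between Grk4 and Rgs10. The other neighbours in this order did not overlap over the 4 libraries. Avpr2, the V2 receptor gene, stood far above all of them at 482 ± 65 TPM (SD, n = 4).

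Arrb1, which encodes beta-arrestin 1, fell. Its TPM was 27.4, 30.8, 29.0 and 31.0 in AVP-flox 1 to 4 and 23.1, 17.6, 22.8 and 24.8 in AVP-flox;Cre 1 to 4. Every AVP-flox;Cre library was below every AVP-flox library, and AVP-flox;Cre 2 was the lowest. The means of 29.5 ± 1.7 and 22.0 ± 3.1 TPM (SD, n = 4 per group) differed 1.34-fold, with a log2 fold change of -0.42 (SE 0.11, adjusted p = 0.0202 with limma). The exact permutation test of the means gave a two-sided p of 0.0286, the smallest that 4 against 4 allows. The call ended without AVP-flox 2 (adjusted p = 0.0515) and without AVP-flox 4 (adjusted p = 0.0505), and likewise with no filter on low values (0.0749) and without the 3 libraries named above (0.0897). Over 23 alternatives the adjusted p ran from 0.00979 to 0.223. The gene (ENSMUSG00000018909) lies at chr7:99535147-99606772 in the GRCm38.p6 RefSeq annotation.

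Arrb2, which encodes beta-arrestin 2, stood at 16.6, 19.9, 17.6 and 13.5 TPM in AVP-flox and at 16.7, 6.14, 14.9 and 12.7 TPM in AVP-flox;Cre. The groups overlapped, and AVP-flox;Cre 2 was far below the other 7 libraries. Its log2 fold change of -0.46 was no smaller than that of Arrb1 but had a wider error (SE 0.26, 95% interval -1.04 to 0.11, adjusted p = 0.216 with limma). Without AVP-flox;Cre 2 it was -0.18 (adjusted p = 0.398), and without the 3 libraries named above -0.0070 (adjusted p = 0.983).

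The summed level of the 2 beta-arrestin genes did not overlap between the groups, at 44.1 to 50.7 TPM in AVP-flox and 23.7 to 39.7 TPM in AVP-flox;Cre. Their exact permutation p was 0.0286, and 0.171 after adjustment over the 6 sums and shares compared in this way. The share of Arrb1 in that sum was 63.7 ± 4.0% and 64.7 ± 7.1% (SD, n = 4 per group), with a two-sided exact permutation p of 0.83 (adjusted 0.83). The balance between the 2 genes thus differed by less than the spread between libraries.

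Grk6, a membrane-anchored receptor kinase and the most abundant GRK in AVP-flox, fell in the test, but not in every library. Its TPM was 23.4, 28.1, 27.4 and 29.8 in AVP-flox 1 to 4 and 28.3, 7.97, 10.1 and 6.53 in AVP-flox;Cre 1 to 4. AVP-flox;Cre 1 lay inside the AVP-flox range, while AVP-flox;Cre 2, 3 and 4 were all well below it. The means of 27.2 ± 2.7 and 13.2 ± 10.2 TPM (SD, n = 4 per group) differed 2.05-fold, with a log2 fold change of -1.20 (SE 0.35, adjusted p = 0.0305 with limma). The exact permutation test of the means gave a two-sided p of 0.114.

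The call of Grk6 held in only 1 of the 8 fits that leave out a library. Without AVP-flox;Cre 1 the log2 fold change was -1.63 (adjusted p = 0.000178), and without AVP-flox;Cre 2, 3 or 4 it was -1.06, -1.16 or -0.97 (adjusted p = 0.0748, 0.0699 and 0.0739). Without AVP-flox 1, 2, 3 or 4 the adjusted p was 0.0502, 0.0657, 0.0668 and 0.0692. Without the 3 libraries named above the log2 fold change was -0.62 (adjusted p = 0.313), and over 23 alternatives the adjusted p ran from 0.000178 to 0.313. The gene (ENSMUSG00000074886) lies at chr13:55445072-55460927.

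Of 9822 genes whose AVP-flox libraries averaged 10 TPM or more, 40 (0.407%) showed the same split as Grk6. The criterion was a level in AVP-flox;Cre 1 at or above the lowest AVP-flox library, with AVP-flox;Cre 2 to 4 at or below 50% of it. This criterion was written after the values of Grk6 were seen. In 35 of these genes with an annotated transcript, the first 300 nt had a median GC content of 73.7%, against 60.7% in all genes considered. Grk6 itself is among the 40. The criterion picks genes that were low in AVP-flox;Cre 2 to 4, where GC-rich genes were lowest, so this median is not independent of it.

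None of Grk2, Grk4 and Grk5 passed the test. Grk2, the widely expressed kinase that G protein beta-gamma subunits bring to the membrane, was at 9.23, 9.22, 10.5 and 10.5 TPM in AVP-flox and at 8.58, 10.2, 8.38 and 8.53 TPM in AVP-flox;Cre. The groups overlapped through AVP-flox;Cre 2 alone. The log2 fold change was -0.13 (95% interval -0.38 to 0.12, adjusted p = 0.423 with limma). Grk5, another membrane-bound kinase, ranged from 5.50 to 7.22 TPM and from 6.19 to 7.65 TPM, and its 95% interval of -0.25 to 0.34 excludes a 2-fold change in either direction.

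Grk4, which has been studied in the kidney for its action on dopamine receptors, was uneven among controls, at 5.38, 2.66, 2.53 and 5.15 TPM in AVP-flox. The AVP-flox;Cre libraries lay inside that range at 4.21, 4.76, 3.08 and 4.02 TPM. Its 95% interval was -0.46 to 0.60, wider than that of Grk5.

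Grk3, the close relative of Grk2, was at 2.29 ± 0.62 and 3.31 ± 0.73 TPM (SD, n = 4 per group) and did not pass (log2 fold change 0.39, adjusted p = 0.190 with limma). The 5 kinases Grk2 to Grk6 added up to 46.9, 48.5, 49.7 and 54.2 TPM in AVP-flox. In AVP-flox;Cre the sum was 51.2 TPM in library 1 and 31.5, 31.6 and 30.9 TPM in libraries 2 to 4. Without Grk6 the sums were 22.6 ± 1.7 and 23.0 ± 1.2 TPM (SD, n = 4 per group), with a two-sided exact permutation p of 0.743 (adjusted 0.83). Grk6 made up 49.9 to 57.9% of the sum in AVP-flox and 55.4, 25.3, 32.1 and 21.2% in AVP-flox;Cre 1 to 4, with an exact permutation p of 0.114 (adjusted 0.229).

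**Figure D2:**
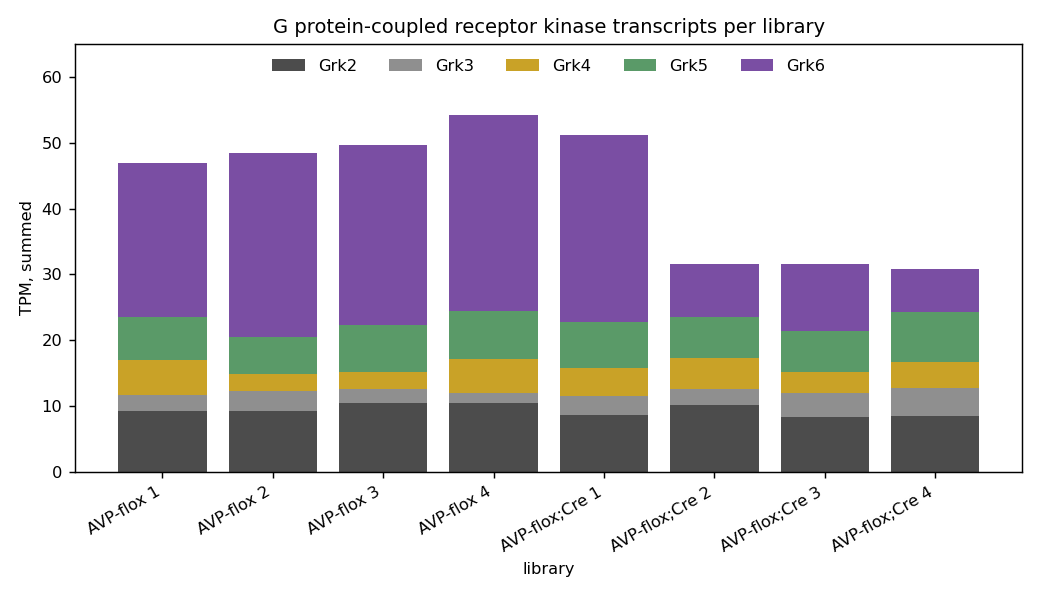
Stacked TPM of the 5 kinases Grk2 to Grk6 in each library, on an axis that starts at 0. The Grk6 segment is large in the AVP-flox libraries and in AVP-flox;Cre 1 and small in AVP-flox;Cre 2 to 4, where the sum is 30.9 to 31.6 TPM, while the other segments together stay between 20.4 and 24.4 TPM in all 8 libraries.

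Rgs3, which accelerates GTP hydrolysis on inhibitory and Gq alpha subunits, rose and was the steadiest change in the set. Its TPM was 14.6, 15.6, 14.2 and 15.8 in AVP-flox 1 to 4 and 20.0, 21.2, 20.8 and 23.8 in AVP-flox;Cre 1 to 4. All AVP-flox;Cre libraries were above all AVP-flox libraries, and the spread within each group was small. The means of 15.0 ± 0.8 and 21.4 ± 1.6 TPM (SD, n = 4 per group) gave a 1.42-fold rise, with a log2 fold change of 0.48 (SE 0.09, 95% interval 0.28 to 0.68, adjusted p = 0.00400 with limma). The exact permutation p was 0.0286. The call held in each of the 8 fits that leave out a library (adjusted p from 0.00682 to 0.0151). It ended only when AVP-flox 2 was left out along with AVP-flox;Cre 2 and 4, where the value was 0.43 (adjusted p = 0.0601, range over 23 alternatives 0.00289 to 0.0601). The gene (ENSMUSG00000059810) lies at chr4:62559835-62703019.

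Rgs2, a brake that acts mainly on Gq and has a described response to vasopressin, did not pass the test. It stood at 11.3, 14.9, 18.9 and 14.6 TPM in AVP-flox and at 13.6, 13.8, 19.6 and 19.2 TPM in AVP-flox;Cre. The groups overlapped. The log2 fold change was 0.14 (SE 0.17, 95% interval -0.24 to 0.53, adjusted p = 0.588 with limma), an interval that leaves room for a modest rise or a small fall. Leaving out 1 library moved it from 0.026 (without AVP-flox 1) to 0.26 (without AVP-flox 3).

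Rgs10, best known from immune cells and microglia, was low, at 2.13, 1.97, 1.65 and 2.63 TPM in AVP-flox and 2.68, 1.68, 2.03 and 4.38 TPM in AVP-flox;Cre. The highest library was AVP-flox;Cre 4, and the fitted difference of 0.21 did not pass (95% interval -0.33 to 0.75, adjusted p = 0.566 with limma). It was 0.013 without AVP-flox;Cre 4 and 0.35 without AVP-flox;Cre 2, so single libraries set its size. Rgs14, which pairs an RGS domain with a second site for inhibitory alpha subunits, was listed at 0.12 to 0.52 TPM and 0.35 to 0.92 TPM and was below the level required for testing. Without that filter it differed by 0.27 on the log2 scale (SE 0.21, adjusted p = 0.650 with limma). Markers of leukocytes, where Rgs10 is abundant, summed to 150 to 246 TPM in AVP-flox and 177 to 289 TPM in AVP-flox;Cre over 15 genes. Of these, 10 were tested, 1 was higher and 9 did not pass. Cd3e, Cd79a and Ms4a1, which mark lymphocytes, and the myeloid gene Itgam averaged under 1 TPM. The part of leukocytes in the Rgs10 values was not tested.

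**Figure D3:**
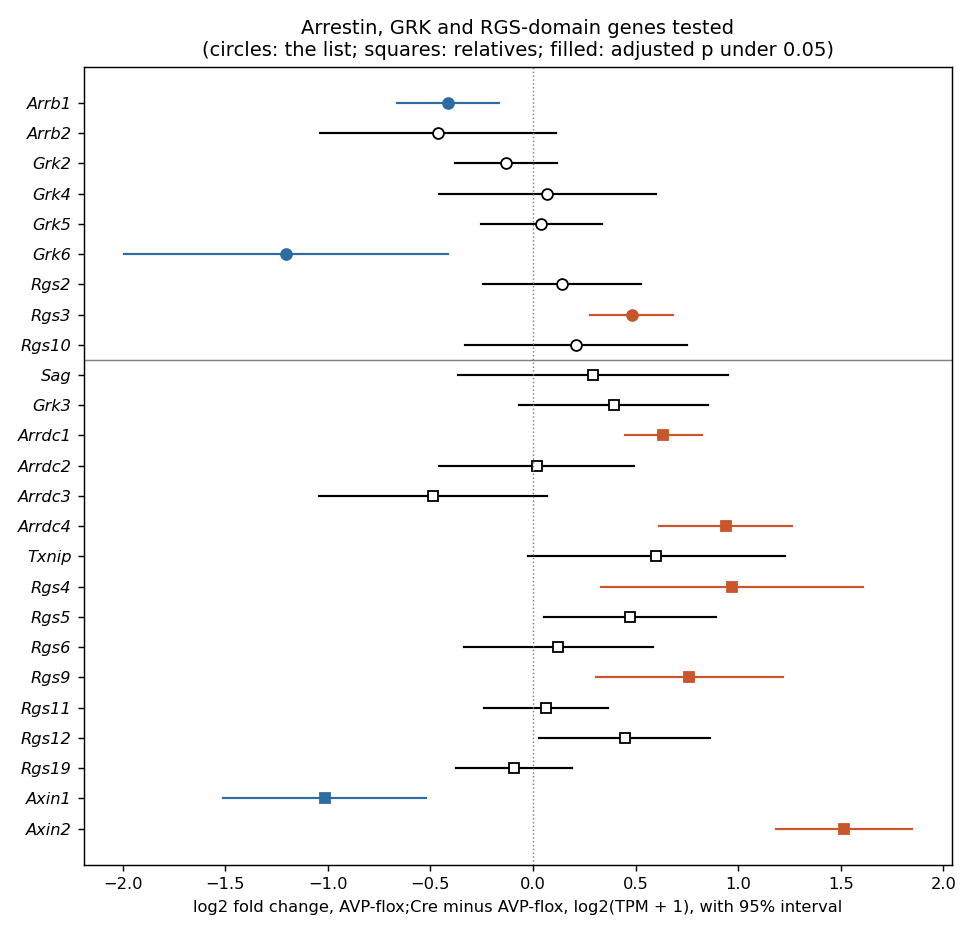
Log2 fold change on the log2(TPM + 1) scale, AVP-flox;Cre minus AVP-flox, with 95% intervals, for the 9 tested members (circles) and their tested relatives (squares), filled where the adjusted p was under 0.05. Rgs3 lies above 0, Arrb1 and Grk6 lie below it, and Grk6 has the widest interval of the 3.

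Both members that fell start with GC-rich sequence, and such genes were lower more often in AVP-flox;Cre. The first 300 nt of the longest GENCODE M21 transcript held 78% GC in Arrb1 and 73.7% in Grk6, against 53.7% in Rgs3. Grk4 and Grk5, which did not pass the test, held 68.3% and 67.3%. Shares by GC class were taken over genes that averaged 10 TPM or more in AVP-flox. That filter used AVP-flox alone, so it keeps genes that fell and drops some that rose, which tilts the shares towards lower. Among these genes, those above 75% GC (603 genes) were lower in 37.8% of cases and higher in 6.5%. Those above 70% and up to 75% (1047 genes) were lower in 26% and higher in 13.3%, and those up to 50% (1211 genes) were lower in 18% and higher in 18.4%.

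The class above 75% GC had median differences from the AVP-flox mean of -0.09, -0.40, -0.22 and -0.35 in AVP-flox;Cre 1 to 4 on the log2 scale. Arrb1 was at -0.34, -0.71, -0.36 and -0.24, which is below its class in libraries 1 to 3 and above it in library 4. After each library was corrected for its trend with GC content, Arrb1 no longer passed (-0.19, adjusted p = 0.223 with limma). Grk6 was at 0.06, -1.65, -1.33 and -1.90, against class medians of -0.05, -0.15, -0.09 and -0.10 for genes above 70% and up to 75% GC. After the correction it was at -1.07 (adjusted p = 0.0344). Rgs3 was at 0.43 after it (adjusted p = 0.00721). What part the GC content has in the values of Arrb1 and Grk6 beyond this was not tested.

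**Figure D4:**
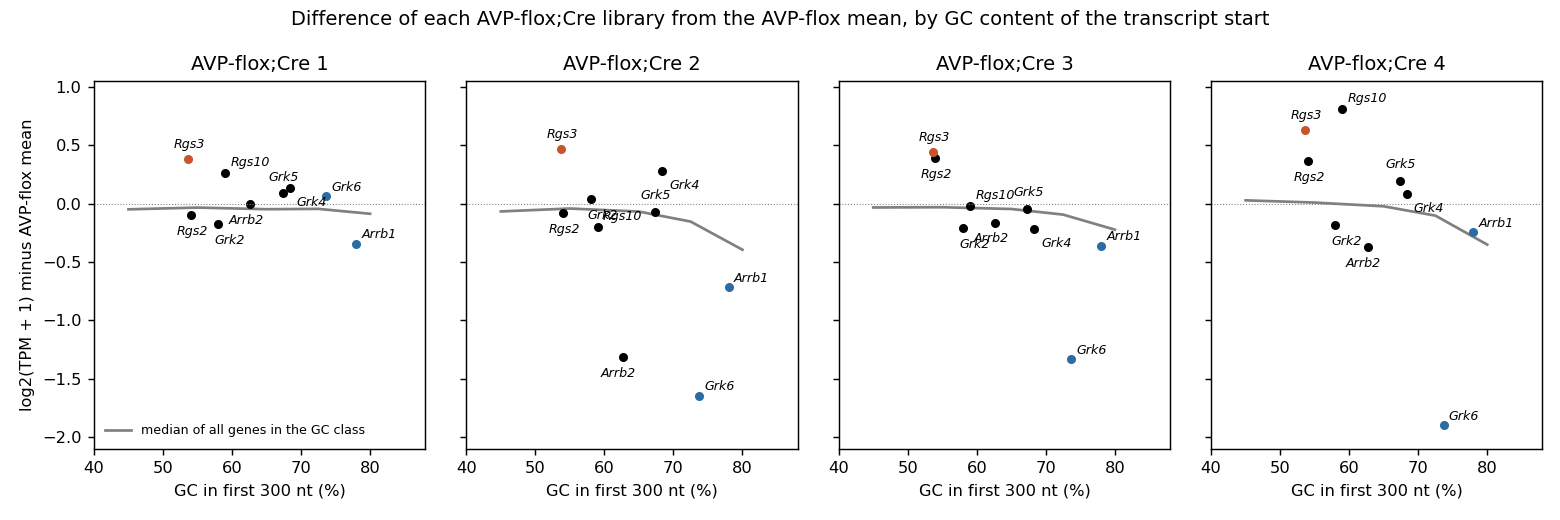
Difference of each AVP-flox;Cre library from the AVP-flox mean on the log2(TPM + 1) scale against the GC content of the first 300 nt. Points are the 9 tested members (blue lower, orange higher, black not past the test). The grey line, drawn at class midpoints, is the median per GC class of genes that averaged 10 TPM or more in AVP-flox. Grk2, Grk4, Grk5 and Rgs10 were below that level. The grey line bends down above 70% GC in AVP-flox;Cre 2 to 4, Grk6 lies far below it there, and Rgs3 lies above it in all 4 libraries.

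Among further arrestin and GRK genes the share past the test was near that of all genes tested. The alpha-arrestins Arrdc1 and Arrdc4, adaptors that recruit ubiquitin ligases to membrane proteins, rose. Arrdc1 was at 132 ± 15 and 205 ± 6 TPM (log2 fold change 0.63, SE 0.08) and Arrdc4 at 15.9 ± 3.9 and 30.8 ± 1.6 TPM (SD, n = 4 per group, log2 fold change 0.94, SE 0.15). Both passed (adjusted p = 0.000614 and 0.00135 with limma) and did so in all 23 alternatives. Arrdc3 (-0.49, adjusted p = 0.180) and Txnip, an alpha-arrestin that controls glucose uptake (0.60, adjusted p = 0.144), did not. Arrdc3 was at -0.24 without AVP-flox;Cre 2, and Txnip was at 0.29 without AVP-flox 1 and passed with the sex pattern as a covariate (0.77, adjusted p = 0.0251). Of 10 further arrestin and GRK genes, 7 were tested, 2 were higher, 0 were lower and 5 were not past it. Their median was 0.39 against -0.01 over all genes tested, of which 27.3% passed. The visual arrestin and kinase genes Arr3 and Grk1 averaged under 1 TPM. Sag, another visual arrestin gene, averaged 0.87 TPM in AVP-flox and 1.38 TPM in AVP-flox;Cre and did not pass (0.29, adjusted p = 0.511 with limma).

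Of 21 further genes with RGS domains or binding RGS proteins, 9 were tested, 3 were higher, 1 was lower and 5 were not past it (median 0.45). The share that passed over all genes tested was 27.3%. Rgs9, a regulator known from retina and striatum, rose from 3.52 ± 1.08 to 6.61 ± 1.45 TPM (SD, n = 4 per group, log2 fold change 0.76, adjusted p = 0.0207 with limma). It did not pass in 6 of 23 alternatives, among them those that left out AVP-flox 1 or 2, or AVP-flox;Cre 3 or 4 (adjusted p from 0.0533 to 0.0575). Rgs4, a regulator rich in pericytes and smooth muscle, spanned 1.93 to 2.43 TPM in AVP-flox and reached 5.19, 2.29, 6.11 and 8.30 TPM in AVP-flox;Cre 1 to 4. It rose in the test (0.97, adjusted p = 0.0304), although AVP-flox;Cre 2 lay inside the AVP-flox range. Its call held in only 1 of the 8 fits that leave out a library, with adjusted p from 0.0544 to 0.0787 in the other 7 and 0.00213 without AVP-flox;Cre 2. Rgs5, the pericyte marker of the family, did not pass (0.47, adjusted p = 0.0890), except with the sex pattern as a covariate (0.59, adjusted p = 0.00995). With a pseudocount of 5 TPM the values of the low genes Rgs9 and Rgs4 were 0.45 and 0.53, on the same side of the threshold.

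Markers of fibroblasts, pericytes and smooth muscle moved in the same direction as Rgs4. Their 12 genes summed to 142 to 195 TPM in AVP-flox and 295 to 368 TPM in AVP-flox;Cre, with 6 of 11 tested genes higher and 0 lower. Over all genes tested 13.1% were higher and 14.2% lower. In AVP-flox;Cre 2, where Rgs4 was lowest, the sum was 297 TPM. Their part in the Rgs4 result was not tested.

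Of the 13 tested alpha subunits, on which RGS proteins act, 3 were higher, 1 was lower and 9 were not past the test (median 0.19). The share past it over all genes tested was 27.3%. All 3 inhibitory alpha subunits of the classical type rose: Gnai1 from 37.6 ± 4.7 to 60.7 ± 10.9 TPM, Gnai2 from 231 ± 31 to 306 ± 30 TPM and Gnai3 from 86.7 ± 7.6 to 106 ± 5 TPM (SD, n = 4 per group). Their log2 fold changes were 0.66, 0.41 and 0.30 (adjusted p = 0.00761, 0.0165 and 0.0188 with limma), and the groups did not overlap for any of them. Gnao1, Gnaz and Gnat2, of the wider inhibitory class, did not pass (0.22, -0.22 and -0.48, adjusted p = 0.209, 0.389 and 0.200 with limma). With median-of-ratios scaling Gnai2 and Gnai3 did not pass (adjusted p = 0.121 and 0.107), and Gnai3 also did not with no filter, without the 3 libraries named above or without AVP-flox 3 (adjusted p = 0.0694, 0.0966 and 0.0577). Gna11, of the Gq class, fell from 148 ± 7 to 104 ± 14 TPM (-0.51, adjusted p = 0.00378). Gnaq and Gna14, of the same class, had positive values and did not pass (0.32 and 0.19, adjusted p = 0.139 and 0.253 with limma). The first 300 nt of Gna11 held 77.7% GC, and its value was -0.29 after the correction for GC content (adjusted p = 0.0138). Those of Gnai1 and Gnai2, which rose, held 73.7% and 71.3% GC. Their values after the correction were 0.80 and 0.50 (adjusted p = 0.00168 and 0.00978 with limma).

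Of 12 tested beta and gamma subunits, 5 were higher, 1 was lower and 6 were not past it (median -0.04), beside 27.3% of all genes that passed. Gnb4, a beta subunit, rose from 8.00 ± 1.30 to 16.4 ± 0.7 TPM and Gng12, an abundant gamma subunit, fell from 461 ± 15 to 326 ± 25 TPM (SD, n = 4 per group, log2 fold changes 0.96 and -0.50, adjusted p = 0.000475 and 0.000668 with limma). Gng11 and Gng2 rose by 0.54 and 0.50 on the log2 scale (adjusted p = 0.00275 and 0.00884).

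Among 29 tested receptors of the collecting duct and medulla, 8 were higher, 2 were lower and 19 were not past it (median 0.20). Of all genes tested, 27.3% passed. Avpr2 itself was at 482 ± 65 and 506 ± 53 TPM (SD, n = 4 per group) and did not pass (log2 fold change 0.08, adjusted p = 0.657 with limma). Ednrb, the endothelin B receptor, rose from 57.5 ± 8.1 to 96.1 ± 9.0 TPM (0.74, adjusted p = 0.00110). F2r, the thrombin receptor, rose by 0.63 (adjusted p = 0.00502). Ptger1, the EP1 prostaglandin E2 receptor, fell from 326 ± 58 to 216 ± 15 TPM (-0.58, adjusted p = 0.00492). Glp1r rose from 0.33 ± 0.12 to 2.06 ± 0.46 TPM (1.19, adjusted p = 0.00392), a difference between low levels whose size rests on the pseudocount. The TPM means differed 6.18-fold, and the log2 fold change was 2.33 with a pseudocount of 0.1 TPM and 0.40 with 5 TPM, past the threshold in both. A receptor not past the test cannot be called steady, and the difference between receptors was not tested.

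Partners that act with arrestins after binding were taken as 23 genes of clathrin, its AP-2 adaptor, receptor ubiquitination and retromer. Of these, 1 was higher, 4 were lower and 18 were not past the test (median -0.20). Over all genes tested, 13.1% passed as higher and 14.2% as lower. Ap2m1 and Ap2s1, which encode subunits of the AP-2 complex, moved in opposite directions, at 0.31 and -0.36 (adjusted p = 0.00345 and 0.0140 with limma). Both calls ended with median-of-ratios scaling (adjusted p = 0.0879 and 0.0962), and that of Ap2m1 also without the 3 libraries (adjusted p = 0.0542). Vps35, the core of retromer, fell by 0.31 (adjusted p = 0.0230) and did not pass in 8 of 23 alternatives, among them those without AVP-flox 1, 2 or 3 or AVP-flox;Cre 3 (adjusted p from 0.0513 to 0.0619).

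Arf6, a small GTPase of receptor endocytosis, fell from 147 ± 12 TPM to 104, 32.7, 66.9 and 19.8 TPM in AVP-flox;Cre 1 to 4 (-1.65, adjusted p = 0.0149 with limma). As with Grk6, AVP-flox;Cre 1 was nearest to the controls. The first 300 nt of Arf6 held 77.7% GC, and its value was -1.43 after the correction (adjusted p = 0.0162). Without the 3 libraries named above it was -0.78 (adjusted p = 0.0381).

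Of 15 further modulators, 3 were higher, 1 was lower and 11 were not past it (median -0.01), near the 27.3% of all genes that passed. The GPCR-associated sorting genes Gprasp2 and Gprasp1, which direct internalised receptors towards degradation, rose by 1.06 and 0.46 on the log2 scale (adjusted p = 0.00235 and 0.0120 with limma). With a pseudocount of 5 TPM the low gene Gprasp2 was at 0.57. Nherf1, a scaffold for receptors and transporters, rose by 0.27 (adjusted p = 0.0274) but passed in only 2 of the 8 fits that leave out a library, those without AVP-flox 1 or AVP-flox;Cre 4. Pebp1, which in phosphorylated form inhibits Grk2, fell by 0.26 (adjusted p = 0.0356) and also passed in only 2 of those 8, without AVP-flox 4 or AVP-flox;Cre 2. Over the leave-outs the adjusted p of Nherf1 ran from 0.0179 to 0.0719 and that of Pebp1 from 0.0108 to 0.0963.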

How the data were processed

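RNA of 8 mouse kidney samples was turned into cDNA (SMART-Seq HT, 1 ng input, 11 PCR cycles) and tagmented with Nextera XT, per the labels' protocols. The submitters' processing notes name STAR and RSEM. Versions, genome build and annotation: not given in the sources used here. The deposited values are TPM, which the authors scaled to an equal total per library. TPM keeps no depth, so no counting interval is given. WT in a column name was taken to mean AVP-flox, KO to mean AVP-flox;Cre, and the number to mean the replicate.

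Identifiers sharing a symbol were summed, which left 77981 genes. Those averaging 1 TPM or more were fitted as log2(TPM + 1) with limma 3.58.1 in R 4.3.3, with a mean-variance trend, two-sided, and Benjamini-Hochberg adjustment over 19043 genes. Exact permutation tests used scipy 1.17.1. On simulated data of 19043 genes the fit found 87% of genes set to a log2 change of 1 and 97.4% of those set to 2. There were 61 false calls over 5 runs of 200 changed genes each. The changed genes were drawn from levels above those of Grk4 and Rgs10, with noise independent between genes. They were far fewer than the 5204 called in the data. Changes as small as those of Arrb1 and Rgs3 were not simulated. GC content came from GENCODE M21 transcripts through gene identifiers, with a value for 84.2% of tested genes, and the correction used a spline of 5 degrees of freedom per library. In GENCODE M21 the exons of the 10 genes overlap those of no other gene, apart from a microRNA within Arrb2.

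The members, lists and alternatives were chosen with earlier results of these data known. The rule for named genes took all 10 members and, from each other list, up to 4 genes past the threshold with the smallest adjusted p. Grk3, Arrdc3, Txnip, Rgs5, Gnas and Avpr2 were added because sentences turn on them, and the genes named as low or absent after their values were seen. After their values were seen, Gnaq and Gna14 were named beside Gna11, and Gnao1, Gnaz and Gnat2 beside Gnai1, Gnai2 and Gnai3. Sag was named beside Arr3 and Grk1 in the same way. The genes so named were not followed over the alternatives. Cell type marker lists are given by sums and counts, with Aqp2 named because it sets a sum.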

Additional observations from a re-analysis of the deposited data

Results flagged for a closer look

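Of 96 groups of 4 libraries checked, 7 had a library far from the other 3, where chance gives about 1 in 20. Grk6 in AVP-flox;Cre 1 was at 28.3 TPM against 6.53 to 10.1 TPM in the other AVP-flox;Cre libraries, and the sum of the 5 kinases Grk2 to Grk6 was at 51.2 TPM there against 30.9 to 31.6 TPM. In AVP-flox;Cre 2, Grk2 was at 10.2 TPM against 8.38 to 8.58 TPM, the sum of Arrb1 and Arrb2 was at 23.7 TPM against 37.5 to 39.7 TPM, and Ap2s1 was at 122 TPM against 97.1 to 101 TPM. Rgs14 was at 0.92 TPM in AVP-flox;Cre 3 against 0.35 to 0.44 TPM. The share of Arrb1 in the beta-arrestin sum was 69.6% in AVP-flox 4 against 60.8 to 62.2% in AVP-flox 1 to 3.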

How the results depend on the processing

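Of 936 values of 41 named genes over 23 alternatives, 851 kept their direction and their side of the threshold, 68 were no longer past it, 8 became so and 9 changed sign. The sign changes were all in genes not past the test. Grk4 was at -0.031 with the sex pattern as a covariate and -0.17 when AVP-flox 2 was left out along with AVP-flox;Cre 2 and 4, where Grk5 was at -0.052. Leaving out each library in turn gave -0.073 to 0.21 for Grk4, -0.031 to 0.082 for Grk5 and -0.015 to 0.14 for Avpr2. The 3 members past the threshold became 1 with no filter on low values, 0 without those 3 libraries (limma, with 2 of 9 members at an unadjusted p under 0.05), and 1 to 3 when each library was left out (1 without AVP-flox 2 or AVP-flox 4). The cause was not tested. All genes past it went from 5204 to 3409 with no filter and to 2560 without the 3 libraries. With the replicate block, 4431 genes and 3 members passed, and no member changed its call. Deviations of same-numbered libraries correlated at 0.001, 0.015, 0.095 and 0.004 across genes, only the libraries numbered 3 correlated best with each other, and the numbers were not taken as pairs. Grk6 was not past the threshold when limma ran with no trend or in robust mode (adjusted p = 0.0561 and 0.0547). Scaling moved the median of all genes to between -0.04 and -0.01. The depth of the libraries is unknown, which leaves the precision of Rgs10 and Rgs14 at their low levels unmeasured.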

Other observations

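Gnas, which encodes the stimulatory alpha subunit that the V2 receptor activates, was near the control level in AVP-flox;Cre 1 and lower in the other 3. It spanned 635 to 710 TPM in AVP-flox and was found at 680, 345, 455 and 215 TPM in AVP-flox;Cre 1 to 4. Its log2 fold change of -0.81 did not pass (adjusted p = 0.0557 with limma, range over 23 alternatives 0.00606 to 0.299), and without AVP-flox;Cre 1 it was -1.07 (adjusted p = 0.00606). Leaving out AVP-flox;Cre 4 instead gave -0.52 (adjusted p = 0.0782). Without the 3 libraries that stood apart the value was -0.28 (adjusted p = 0.299). Its first 300 nt held 60% GC, and its value after the correction for GC content was -0.83 (adjusted p = 0.0584).

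The RGS-domain genes of Wnt signalling, Axin1 and Axin2, moved in opposite directions. Axin1, a scaffold of the beta-catenin destruction complex, fell from 23.0 ± 6.6 to 10.8 ± 2.6 TPM, and Axin2, its inducible relative and a target of Wnt signals, rose from 3.00 ± 0.51 to 10.4 ± 1.3 TPM (SD, n = 4 per group). Their log2 fold changes were -1.02 and 1.52 (adjusted p = 0.00818 and 0.000121 with limma), the groups did not overlap for either, and both passed in all 23 alternatives. Axin2 was at 0.95 with a pseudocount of 5 TPM. The first 300 nt of Axin1 held 79% GC, and its value after the correction was -0.76 (adjusted p = 0.0270).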
